A study of Mus musculus with 27 samples.

Results

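Igf1, Pdgfa, Pdgfb, Vegfa, Vegfb, Hbegf, Csf1 and Gdf15 encode secreted or shed growth factors that microglia can make, and their RNA was measured in CD11b+ cells sorted by flow cytometry from mouse brain. The 8 genes were chosen by name as trophic factors of microglia, out of 53412 genes in the count table of a minocycline experiment and 55421 genes in that of an enrichment experiment. All mice were of the strain labelled C57BJ6, and cells came from the prefrontal cortex (PFC) or the hippocampus (HC). In the minocycline experiment, NAIVE mice were naive controls (2 libraries from PFC and 2 from HC), CUMS mice went through chronic unpredictable mild stress, a depression model (2 and 3 libraries), and CUMS_M mice had the same stress and minocycline, a tetracycline antibiotic (3 and 3 libraries). In the enrichment experiment every group was stressed: VEH mice had CUMS and vehicle (3 and 3 libraries), and EE mice had CUMS and environmental enrichment (3 and 3 libraries). The enrichment experiment thus has no unstressed group, and the label of the CUMS group in the minocycline experiment names no vehicle. The labels used here give no age, sex or batch, and do not say that replicates are separate animals, so p-values measure the spread between these libraries, which may be technical.

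Growth factors of this kind bind receptors on neighbouring cells or on the cell that made them. Igf1 acts on the IGF1 receptor and supports neurons and myelin-forming cells, the PDGF chains act on oligodendrocyte precursors and on the mural cells of vessels, and the VEGF chains act on endothelium and on neurons. Hbegf is a membrane-anchored ligand of the EGF receptor that proteases release, Csf1 is a survival factor of microglia through Csf1r, and Gdf15 is a stress-induced member of the TGF-beta superfamily.

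Library totals were 7867323 to 15278540 counts in the minocycline experiment and 19519120 to 23902720 counts in the enrichment experiment. None of the 14 microglia markers was at 0 in any library, and their summed level was 49252 to 63077 CPM (counts scaled to a common library size) in the first experiment and 39215 to 55651 CPM in the second. Markers of the choroid plexus, the tissue that makes cerebrospinal fluid, divided the libraries. Their sum was 753 to 2577 CPM in HC of the minocycline experiment and 9.41 to 40.6 CPM in PFC, except for 782 CPM in PFC CUMS_M replicate 3. In the enrichment experiment 6 libraries went against this division: PFC VEH 2 and 3 and PFC EE 2 and 3 had 301 to 1515 CPM, and HC VEH 1 and 2 had 6.13 and 5.72 CPM. The members' differences without these 7 libraries are given after the treatment comparisons. In bulk libraries of sorted cells, fewer cells of a type and less RNA per cell cannot be told apart.

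All 8 genes are protein-coding and passed the filter on low counts in both tables. In GRCm38 with the GENCODE M21 annotation, Igf1 (ENSMUSG00000020053) lies on the plus strand of chromosome 10 from 87858265 to 87937042, and the other 7 genes lie on minus strands. Pdgfa (ENSMUSG00000025856) is on chromosome 5 from 138976014 to 138997370 and Pdgfb (ENSMUSG00000000489) on chromosome 15 from 79995874 to 80014977. Vegfa (ENSMUSG00000023951) is on chromosome 17 from 46016993 to 46032369 and Vegfb (ENSMUSG00000024962) on chromosome 19 from 6982473 to 6987651. Csf1 (ENSMUSG00000014599) is on chromosome 3 from 107741048 to 107760469 and Gdf15 (ENSMUSG00000038508) on chromosome 8 from 70629393 to 70632456. Of the exon bases of Pdgfa, 26.07% also lie in exons of 6330403L08Rik on the other strand. The strand setting of the counting is not given in the sources used here, so Pdgfa counts from that overlap are uncertain.

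Sequence before a RefSeq transcript start is printed for Pdgfa, the member that passed the test between regions, and for Vegfb and Vegfa, whose values lay on opposite sides of 0 in that comparison without passing. The RefSeq promoter table of GRCm38.p6 held windows for 6 of the 8 members, 9 windows in all; Pdgfb and Hbegf were not matched. Each run is read 5′ to 3′ on the minus strand, and capitals mark GGGCGG, the core of the GC box, on either strand.
Pdgfa, chr5:138995038-138995194: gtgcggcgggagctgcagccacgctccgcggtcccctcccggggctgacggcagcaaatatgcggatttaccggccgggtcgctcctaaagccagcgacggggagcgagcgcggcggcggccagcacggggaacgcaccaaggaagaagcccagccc
Vegfa, chr17:46032378-46032627: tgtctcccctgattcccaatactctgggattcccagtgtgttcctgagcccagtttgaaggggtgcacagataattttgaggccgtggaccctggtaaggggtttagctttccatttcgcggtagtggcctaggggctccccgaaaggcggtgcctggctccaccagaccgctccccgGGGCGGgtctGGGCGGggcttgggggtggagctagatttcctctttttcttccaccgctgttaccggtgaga
Vegfb, chr19:6987652-6987901: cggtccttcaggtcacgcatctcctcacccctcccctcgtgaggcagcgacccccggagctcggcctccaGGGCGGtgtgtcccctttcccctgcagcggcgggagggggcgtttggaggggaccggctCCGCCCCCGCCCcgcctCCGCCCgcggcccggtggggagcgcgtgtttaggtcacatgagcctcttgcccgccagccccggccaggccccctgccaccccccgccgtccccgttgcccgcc
The window of 250 bases held 4 matches before Vegfb and 2 before Vegfa. The Pdgfa run lies inside the gene's GENCODE extent given above, before a RefSeq start that is downstream of the annotated 5′ end. It is the 157 bases of its window outside the gene's own exons, and it held 0 matches, while its whole window held 2. GGGCGG was present in 32.7% of the 32851 windows of the same length in the table. ACGTG, the core of the hypoxia-factor site, TGACTCA, the AP-1 site, and TATAAA were searched on both strands as well and had no match in these 3 windows. A second Vegfa window, before a start within the gene, held 1 ACGTG match, and a second Gdf15 window held 2. These letters were present in 16.6%, 4.5% and 12.4% of all windows. A match describes the letters in the window, and no binding was measured.

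Per kilobase of exon, Pdgfb was the most abundant of the 8 genes and Gdf15 had the lowest median in both experiments. In the minocycline experiment the median level was 99.4 CPM per kb for Pdgfb, 38.0 for Vegfb, 9.03 for Pdgfa and 7.65 for Csf1. The other 4 were near 1 CPM per kb or below: 1.27 for Hbegf, 1.20 for Vegfa, 1.03 for Igf1 and 0.424 for Gdf15. Pdgfb exceeded Vegfb, Vegfb exceeded Pdgfa and Csf1 exceeded Hbegf in 15 of 15 libraries. The neighbours Pdgfa and Csf1 overlapped in range, with Pdgfa above in 13 of 15 libraries. Hbegf, Vegfa and Igf1 were not separated beyond their spread, with Hbegf above Vegfa in 6 of 15 libraries and Vegfa above Igf1 in 9 of 15. Igf1 and Gdf15 overlapped too, with Igf1 above in 10 of 15 libraries. The length used is that of all annotated exons of a gene merged, 9904 bases for Igf1 and 4834 for Hbegf. In CPM without length, the medians were 10.2 for Igf1, 6.16 for Hbegf and 5.12 for Vegfa. Csf1 had 40.4 and Pdgfa 28.2 CPM, so the order of these 5 genes depends on the length used.

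The enrichment libraries gave a similar order, with medians of 98.2 CPM per kb for Pdgfb and 33.4 for Vegfb. Csf1 at 9.47 CPM per kb stood before Pdgfa at 7.46 there, and was above it in 10 of 12 libraries. Vegfa had 1.70, Hbegf 1.59, Igf1 0.851 and Gdf15 0.619 CPM per kb, and Igf1 was above Gdf15 in 9 of 12 libraries. The 2 tables were scaled apart, so levels are compared within each. The sorted CD11b+ cells, which are not microglia alone, held RNA of other trophic factors at higher levels per kb than these 8. The median of Psap, a lysosomal protein with a secreted trophic form, was 1927 and 1637 CPM per kb in the minocycline and enrichment experiments. That of Grn (progranulin) was 817 and 585. Csf1r, the receptor of Csf1 and a microglial marker, had 2686 and 2234 CPM per kb, while Igf1r had 5.33 and 5.83.

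**Figure D1:**
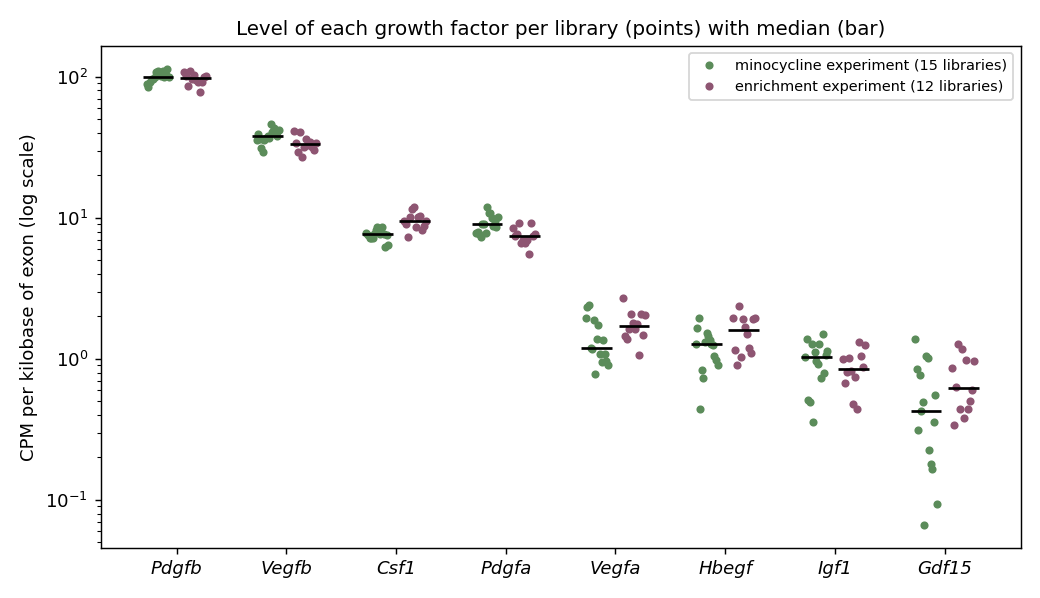
Level of each growth factor in CPM per kilobase of exon on a log axis, 1 point per library with a bar at the median, green for the 15 minocycline and purple for the 12 enrichment libraries. Pdgfb has the highest median in both (99.4 and 98.2), and the ranges of Vegfa, Hbegf and Igf1 overlap.

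None of the 8 genes passed the test in any of the 8 treatment comparisons. These are CUMS against NAIVE, CUMS_M against CUMS and CUMS_M against NAIVE in each region, and EE against VEH in each region; the first 3 of a region share libraries and are not independent. Over the 64 tests of a member, edgeR's quasi-likelihood test called 0 at an adjusted p under 0.05, DESeq2 called 0, and 3 had an unadjusted p under 0.05. Across all genes the share called by edgeR was 0.816% in PFC for CUMS against NAIVE, 0.0206% for CUMS_M against CUMS and 0.0892% for CUMS_M against NAIVE. In HC it was 0%, 0.00686% and 0% for the same comparisons, and it was 0% for EE against VEH in both regions. A missed threshold does not show that levels were equal, and the intervals below give the fold changes left possible.

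**Figure D2:**
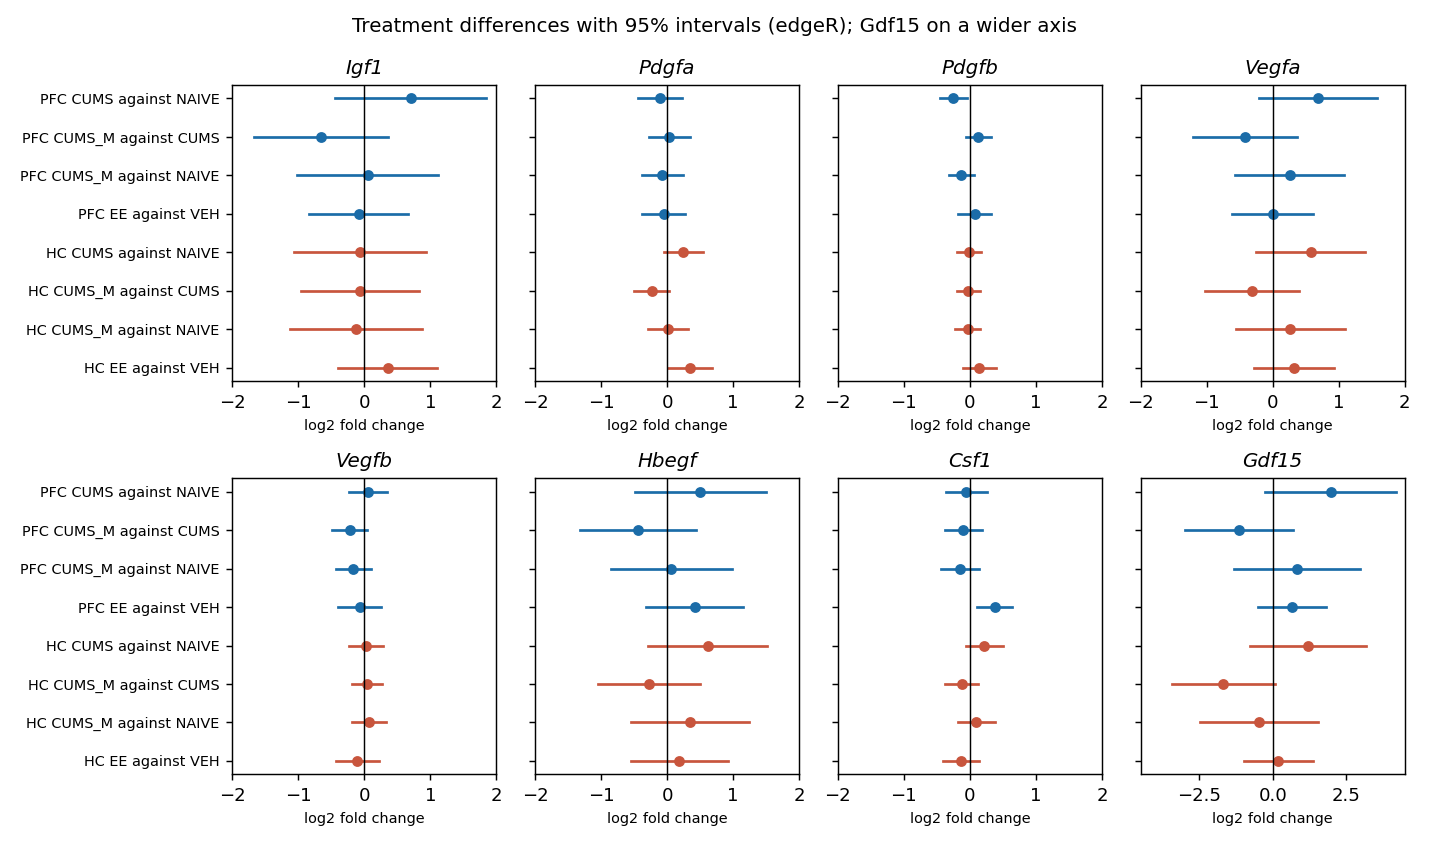
Log2 difference of each growth factor in the 8 treatment comparisons, with points at the estimate and lines over the 95% interval from the fit across all genes, blue for PFC and red for HC, Gdf15 on a wider axis. Intervals are narrow for Pdgfb, Vegfb, Pdgfa and Csf1 and wide for Igf1, Hbegf, Vegfa and Gdf15, and no member passed the test.

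Igf1, the IGF receptor ligand, had groups that overlapped in every treatment comparison. In PFC it had 3.53 and 11.1 CPM in NAIVE, 10.2 and 13.7 CPM in CUMS and 5.03, 4.88 and 12.6 CPM in CUMS_M. In HC it had 10.5 and 11.3 CPM in NAIVE, 9.55, 9.18 and 12.6 CPM in CUMS and 7.20, 14.9 and 7.85 CPM in CUMS_M. NAIVE replicate 1 and CUMS_M replicates 1 and 2 were the low PFC libraries. The log2 difference of CUMS against NAIVE in PFC was 0.70 ± 0.53 (SE; edgeR adjusted p = 0.593), with a 95% interval of the fold from 0.739 to 3.59. That of CUMS_M against CUMS in PFC was -0.66 ± 0.47.

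In the enrichment experiment Igf1 had 9.86, 6.63 and 7.97 CPM in PFC VEH and 10.1, 8.16 and 4.76 CPM in PFC EE. In HC it had 7.35, 4.40 and 12.96 CPM in VEH and 10.5, 8.69 and 12.3 CPM in EE. The groups overlapped, and the log2 difference of EE against VEH in HC was 0.35 ± 0.35 (SE). The biological coefficient of variation of Igf1 was 35.3% in the minocycline and 30.3% in the enrichment experiment, against a median over genes of 17.3% and 20.3%. Over the 8 comparisons the interval bounds of its fold ran from 0.316 to 3.59.

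Pdgfa, the chain that acts on oligodendrocyte precursors, overlapped between the PFC groups and stood higher in HC CUMS than in the other HC groups. In PFC it had 28.2 and 24.4 CPM in NAIVE, 24.2 and 24.7 CPM in CUMS and 23.9, 22.9 and 28.2 CPM in CUMS_M. HC libraries had 26.8 and 31.8 CPM in NAIVE, 37.0, 33.8 and 33.5 CPM in CUMS and 31.3, 27.4 and 29.8 CPM in CUMS_M. The 3 HC CUMS libraries were above both NAIVE and all CUMS_M libraries. Of all genes, 10.3% were higher in HC CUMS than in NAIVE with no overlap, and 4.27% were lower in CUMS_M than in CUMS. In HC the log2 difference of CUMS against NAIVE was 0.25 ± 0.14 (SE; edgeR adjusted p = 1.0), and that of CUMS_M against CUMS was -0.24 ± 0.13 (edgeR adjusted p = 1.0). These 2 comparisons share the CUMS libraries.

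With enrichment, Pdgfa had 20.7, 21.8 and 17.2 CPM in HC VEH and 28.5, 23.3 and 23.9 CPM in HC EE. All 3 EE libraries were above all 3 VEH libraries, a separation that 9.66% of all genes showed in that direction. The log2 difference was 0.34 ± 0.15 (SE; edgeR adjusted p = 0.465), and it was among the 3 tests with an unadjusted p under 0.05. It ran from 0.25 to 0.41 when 1 library was left out at a time, and 2 of 6 fits kept to that unadjusted threshold. With a covariate for markers of astrocytes, endothelium, oligodendrocytes and neurons the difference was 0.28 and missed that threshold. Choroid plexus markers moved in the same direction, with a sum of 769 to 2719 CPM in EE and 5.72 to 311 CPM in VEH. So did astrocyte markers (827 to 1192 CPM in EE, 517 to 658 in VEH) and oligodendrocyte lineage markers (474 to 836 and 243 to 314). Border macrophage markers (2006 to 2513 and 1607 to 1873 CPM) and erythroid markers, given below, were higher in HC EE too. Sums of microglia, endothelial and mural, monocyte, neuron and neutrophil markers overlapped. The part of these cells in the difference was not tested. In PFC, Pdgfa had 26.6, 23.2 and 24.0 CPM in VEH and 28.6, 20.7 and 21.8 CPM in EE, and the groups overlapped.

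Pdgfb, the chain that recruits mural cells, had a biological coefficient of variation of 9.2% in the minocycline and 12.6% in the enrichment experiment, below the median over genes. It had 412 and 448 CPM in PFC NAIVE, 370.0 and 352 CPM in PFC CUMS and 382, 400.0 and 399 CPM in PFC CUMS_M. The groups did not overlap, with NAIVE highest and CUMS lowest. The log2 difference of CUMS against NAIVE was -0.25 ± 0.10 (SE; edgeR adjusted p = 0.260), also among those 3. It ran from -0.30 to -0.20 when 1 library was left out at a time. Each of these fits left 1 library in a group, so no test is given for them. With the marker covariate the difference was -0.21 and missed the unadjusted threshold. With groups of 2, 19.4% of all genes were lower in CUMS with no overlap, and 24.2% were higher. Astrocyte markers summed to 267 to 301 CPM in PFC NAIVE and 905 to 1014 CPM in PFC CUMS. Endothelial and mural markers (80.2 to 107 and 180 to 236 CPM) and border macrophage markers (1674 to 1915 and 2158 to 2412 CPM) were higher in CUMS too. Neutrophil markers (3232 to 4605 and 1682 to 2251 CPM) and microglia markers (58084 to 62293 and 50136 to 53558 CPM) were lower in CUMS. The part of these cells in the difference was not tested.

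In HC, Pdgfb had 475 and 414 CPM in NAIVE, 459, 436 and 425 CPM in CUMS and 458, 413 and 431 CPM in CUMS_M, and all groups overlapped. The enrichment libraries had 453, 419.6 and 356 CPM in PFC VEH and 457, 404 and 431 CPM in PFC EE. They had 396, 381 and 323 CPM in HC VEH and 380.0, 413 and 422 CPM in HC EE, again with overlap. The highest library exceeded the lowest 1.35-fold in the minocycline and 1.41-fold in the enrichment experiment. Interval bounds of the fold over the 8 comparisons ran from 0.727 to 1.31, so larger changes of Pdgfb lie outside every interval.

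Vegfa, the main angiogenic ligand, had 8.10 and 3.33 CPM in PFC NAIVE, 8.32 and 10.02 CPM in PFC CUMS and 10.3, 5.12 and 5.06 CPM in PFC CUMS_M. Its HC values were 4.17 and 3.87 CPM in NAIVE, 5.93, 7.43 and 4.67 CPM in CUMS and 4.07, 5.83 and 4.62 CPM in CUMS_M. CUMS libraries lay above NAIVE libraries in both regions with no overlap, as did 24.2% of all genes in PFC and 10.3% in HC. The log2 difference was 0.68 ± 0.43 in PFC (SE; edgeR adjusted p = 0.501) and 0.58 ± 0.39 in HC (adjusted p = 1.0). In the enrichment experiment Vegfa ranged from 4.59 to 11.5 CPM, and EE and VEH overlapped in both regions.

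Vegfb, a VEGF ligand with little angiogenic activity, showed no separation of groups in any treatment comparison. It had 57.4 and 58.8 CPM in PFC NAIVE, 57.3 and 63.4 CPM in PFC CUMS and 57.9, 50.4 and 46.8 CPM in PFC CUMS_M. The HC values were 61.1 and 67.1 CPM in NAIVE, 61.5, 59.0 and 74.8 CPM in CUMS and 65.3, 69.4 and 66.4 CPM in CUMS_M. Its largest difference by size was -0.22 ± 0.12 (SE, log2; edgeR adjusted p = 1.0) for CUMS_M against CUMS in PFC. Interval bounds over the 8 comparisons ran from 0.716 to 1.27 fold. The enrichment libraries ranged from 43.5 to 66.5 CPM.

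Hbegf, the EGF receptor ligand (ENSMUSG00000024486, chromosome 18 from 36504927 to 36515805), was low and variable. In HC it had 4.72 and 4.38 CPM in NAIVE, 7.33, 7.02 and 6.55 CPM in CUMS and 6.20, 6.06 and 5.06 CPM in CUMS_M. The 3 groups did not overlap, with CUMS highest and NAIVE lowest; 10.3% of all genes were higher in CUMS than in NAIVE in this way and 4.27% lower in CUMS_M than in CUMS. The log2 difference of CUMS against NAIVE was 0.61 ± 0.43 (SE; edgeR adjusted p = 1.0). In PFC the CUMS_M libraries alone spanned 9.38, 2.14 and 4.01 CPM, a range that covered every NAIVE and CUMS library. Enrichment libraries ranged from 4.37 to 11.5 CPM, with EE and VEH overlapping in both regions.

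Csf1, the survival factor of microglia, was higher with enrichment in PFC at the level of single libraries, without passing the test. PFC VEH had 50.1, 47.7 and 38.8 CPM and PFC EE had 53.3, 60.9 and 62.8 CPM. All EE libraries were above all VEH libraries, as were 4.8% of all genes. The log2 difference was 0.37 ± 0.13 (SE; edgeR adjusted p = 0.986), the last of the 3 tests with an unadjusted p under 0.05. In HC, VEH had 45.2, 53.6 and 54.8 CPM and EE had 43.2, 46.3 and 49.9 CPM, with overlap, and the difference was -0.14 ± 0.13. The test of the difference between regions gave -0.51 ± 0.18 (SE; edgeR adjusted p = 0.998); 0% of all genes were called in that test.

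Leaving out 1 library at a time, the PFC difference of Csf1 ran from 0.27 to 0.45 on the log2 scale, with an unadjusted p under 0.05 in 5 of 6 fits and an edgeR adjusted p of 0.685 or more. With the marker covariate this difference was 0.38 and kept to the unadjusted threshold. Erythroid markers summed to 207 to 1014 CPM in PFC EE against 31.8 to 60.1 CPM in PFC VEH. They were higher with enrichment in HC too, at 358 to 833 CPM in EE against 43.3 to 65.0 CPM in VEH. In PFC EE, 18 of 18 immediate early genes had a log2 difference above 0, with a median of 0.69 beside -0.02 for all genes. The part of these genes in the Csf1 difference was not tested. In the minocycline experiment Csf1 had 39.7 and 34.0 CPM in HC NAIVE and 45.2, 43.1 and 40.6 CPM in HC CUMS, groups that did not overlap (log2 difference 0.22 ± 0.14). Of all genes 10.3% were higher in HC CUMS in this way, and the difference of Csf1 did not pass the test. PFC libraries stayed between 37.8 and 43.5 CPM.

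Gdf15, the stress-induced factor, had few counts and spread widely between replicates. In PFC it had 7 and 1 counts in NAIVE, 33 and 17 in CUMS and 6, 12 and 9 in CUMS_M. HC libraries gave 13 and 2 counts in NAIVE, 26, 28 and 6 in CUMS and 5, 4 and 9 in CUMS_M. The PFC CUMS libraries were above both other PFC groups, and the HC groups overlapped. Of all genes 24.2% were higher in PFC CUMS than in NAIVE with no overlap. The log2 difference of CUMS against NAIVE was 1.98 ± 1.07 in PFC (SE; edgeR adjusted p = 0.427), with a 95% interval of the fold from 0.843 to 18.6. That of CUMS_M against CUMS was -1.16 ± 0.88 in PFC and -1.68 ± 0.84 in HC (edgeR adjusted p = 1.0 for each).

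With enrichment Gdf15 had 32, 13 and 30 counts in PFC VEH and 47, 17 and 44 in PFC EE. HC VEH had 15, 41 and 16 counts and HC EE had 20, 24 and 36, and the groups overlapped in both regions. Its biological coefficient of variation, 57.3% in the minocycline and 43.5% in the enrichment experiment, was the highest of the 8 members. The coefficient of variation from counting alone was 33.3% and 19.2% at its median count.

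**Figure D3:**
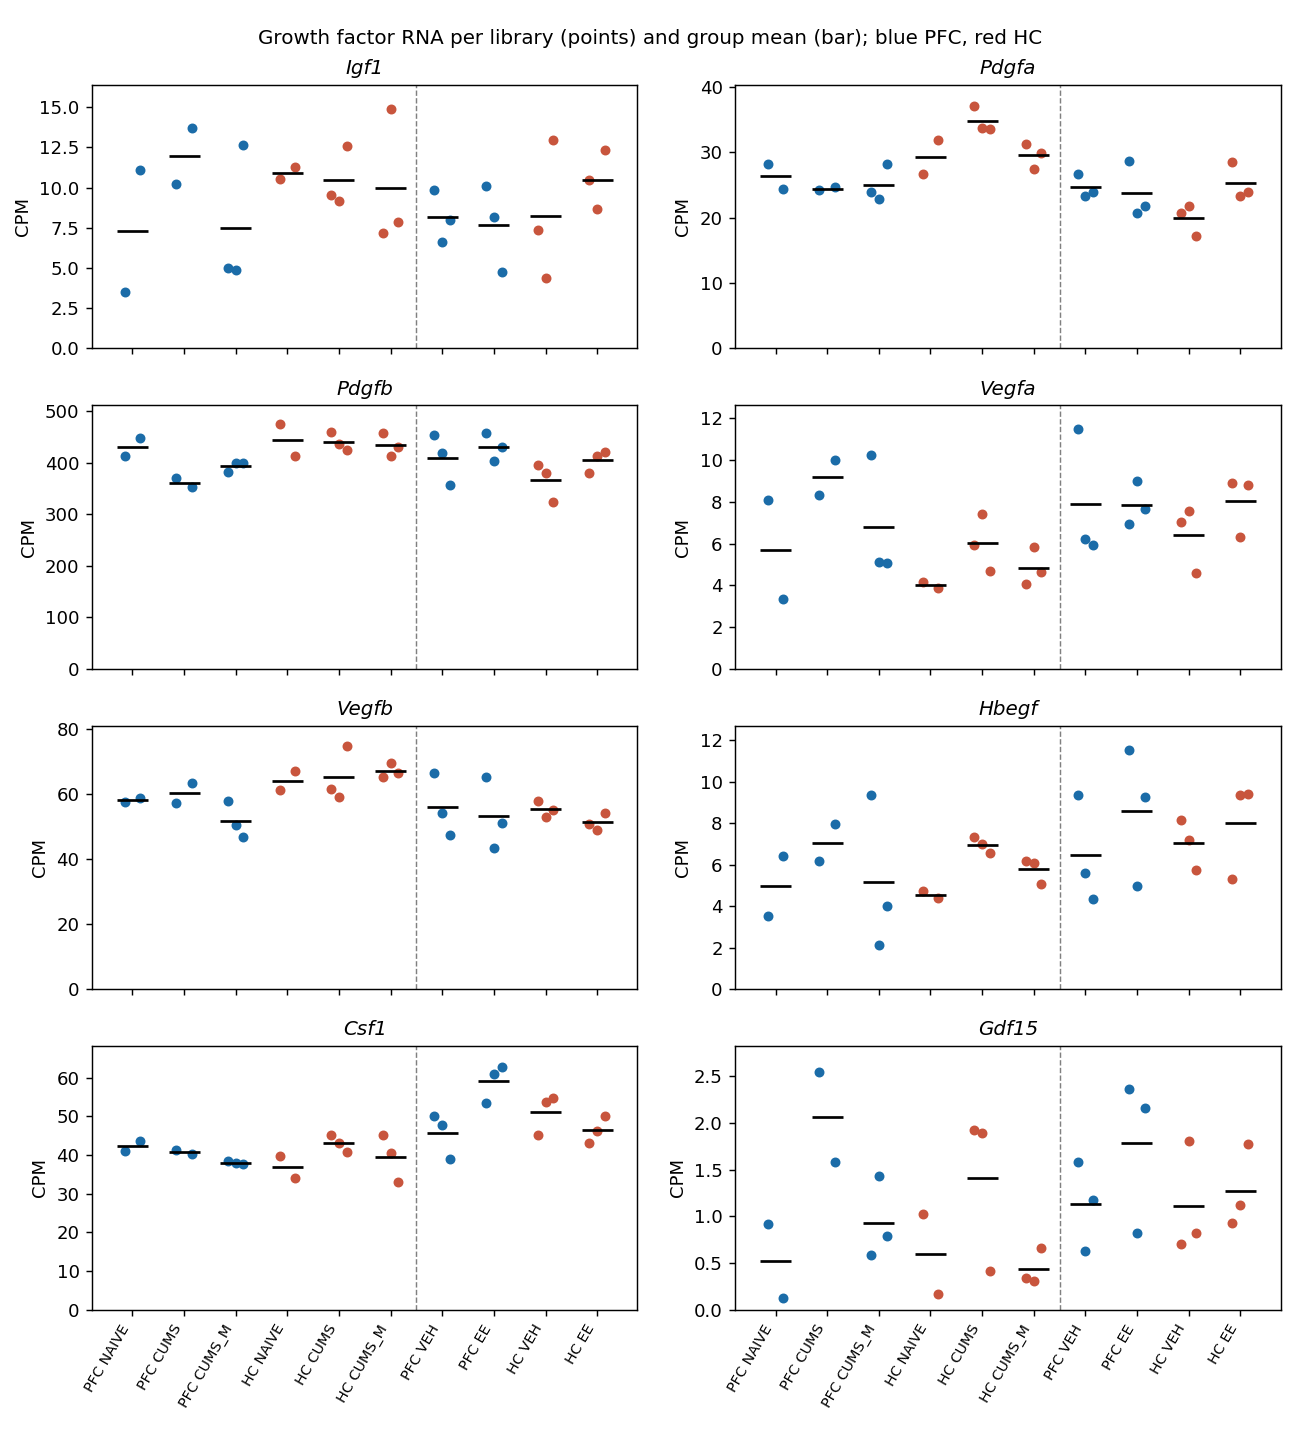
CPM of the 8 growth factors in each of the 27 libraries by region and treatment, 1 point per library with a bar at the group mean, blue for PFC and red for HC. Relative to their level, Pdgfb, Vegfb, Pdgfa and Csf1 spread less within groups than Igf1, Hbegf, Vegfa and Gdf15.

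Counted over the 64 member comparisons, groups did not overlap in 10 with the first group higher and in 7 with it lower. For CUMS against NAIVE in PFC, Vegfa and Gdf15 were higher (24.2% of all genes) and Pdgfb was lower (19.4%). For CUMS_M against CUMS in PFC, Pdgfb was higher with no overlap, as were 8.98% of all genes, and Csf1 and Gdf15 were lower, as were 12% of all genes. For CUMS_M against NAIVE in PFC, Pdgfb and Csf1 were lower (11.4% of all genes) and no member was higher (13.9%). In HC, CUMS against NAIVE had Pdgfa, Vegfa, Hbegf and Csf1 higher (10.3%) and none lower (10.1%), and CUMS_M against CUMS had Pdgfa and Hbegf lower (4.27%) and none higher (6.04%). Hbegf was higher in HC for CUMS_M against NAIVE (9.54% of all genes, 8.16% lower). For EE against VEH, Csf1 was higher in PFC (4.8%, with 4.39% lower) and Pdgfa in HC (9.66%, with 6.36% lower). The median log2 difference of the 8 members was 0.28 for CUMS against NAIVE in PFC (5 of 8 above 0) and 0.23 in HC (6 of 8). For CUMS_M against CUMS it was -0.32 in PFC (2 of 8 above 0) and -0.18 in HC (1 of 8). Medians over all genes in these comparisons lay between -0.01 and 0.02. CUMS_M against NAIVE gave medians of -0.01 in PFC and 0.04 in HC, and EE against VEH 0.04 in PFC and 0.19 in HC. CUMS and CUMS_M comparisons share the CUMS libraries, so their opposite signs are not separate results. Immediate early genes had a log2 difference above 0 in 18 of 18 for CUMS against NAIVE in HC, with a median of 0.62. Astrocyte markers were above 0 in 12 of 12 there (median 0.95), oligodendrocyte lineage markers in 12 of 12 (0.68) and neutrophil markers in 0 of 12 (-1.62). For CUMS_M against CUMS in HC, immediate early genes were above 0 in 0 of 18 (median -1.09) and neutrophil markers in 12 of 12 (1.85). The part of these genes in the members' differences was not tested.

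The members were also compared without the 7 libraries whose choroid level went against the region label, an alternative chosen after the data were seen. In the minocycline experiment this leaves out PFC CUMS_M 3, which had the highest Igf1 of its group. Igf1 was then lower in PFC CUMS_M than in CUMS by a log2 difference of -1.27 (-0.66 with all libraries), and its difference from NAIVE was -0.57 (0.05 with all), and neither passed the edgeR test. Of the enrichment groups, PFC VEH, PFC EE and HC VEH each keep 1 library, so the values that follow have no replicate check and no test is given. In HC the difference of EE against VEH was 0.57 for Pdgfa (0.34 with all libraries), 0.82 for Vegfa (0.32) and -0.29 for Igf1 (0.35). In PFC it was 0.08 for Csf1 (0.37 with all) between PFC EE 1 and PFC VEH 1. Over the 8 members the values ran from -0.29 to 0.82 in HC and from -0.73 for Vegfa to 0.57 for Gdf15 in PFC. Differences of HC against PFC ran from -0.92 for Gdf15 to 0.23 for Igf1.

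Between regions, Pdgfa was higher in HC than in PFC in the minocycline experiment and was the single member that passed. PFC libraries had 22.9 to 28.2 CPM with a median of 24.4 (mean 25.2 ± 2.12, SD, n = 7), and HC libraries had 26.8 to 37.0 CPM with a median of 31.6 (mean 31.4 ± 3.42, SD, n = 8). The ranges overlapped at their edges. The average difference over treatments was 0.30 ± 0.08 (SE, log2), a fold of 1.23 with a 95% interval of 1.09 to 1.39 (edgeR adjusted p = 0.0437). Of all genes 5.1% were called, and nothing is read from 1 call among 8 members. Within treatments the fold of HC over PFC was 1.42 in CUMS, where the groups did not overlap, 1.18 in CUMS_M and 1.11 in NAIVE. The share of all genes separated between regions within a treatment was not counted.

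The call of Pdgfa depended on single libraries and settings. It was past the threshold in 3 of 15 fits that left out 1 library, with log2 differences from 0.26 to 0.34 and adjusted p-values from 0.0227 to 0.158. The fit without PFC CUMS_M replicate 3, the PFC library with a high choroid level, gave 0.33 (edgeR adjusted p = 0.0227). With the replicate number as a block the adjusted p was 0.0958, and with a covariate for markers of astrocytes, endothelium, oligodendrocytes and neurons the difference was 0.21 (adjusted p = 0.468). Choroid markers had a median log2 difference of 6.95 between regions, and 9 of 10 rose in HC. Over the 15 libraries Pdgfa correlated with the summed choroid level (r = 0.79), and over the 12 enrichment libraries the correlation was -0.01. Other cell type lists correlated with Pdgfa over the 15 libraries as well, such as neutrophil markers (r = -0.73) and endothelial and mural markers (r = 0.63). Libraries share region and treatment groups, and the part of these cells in the result was not tested.

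**Figure D4:**
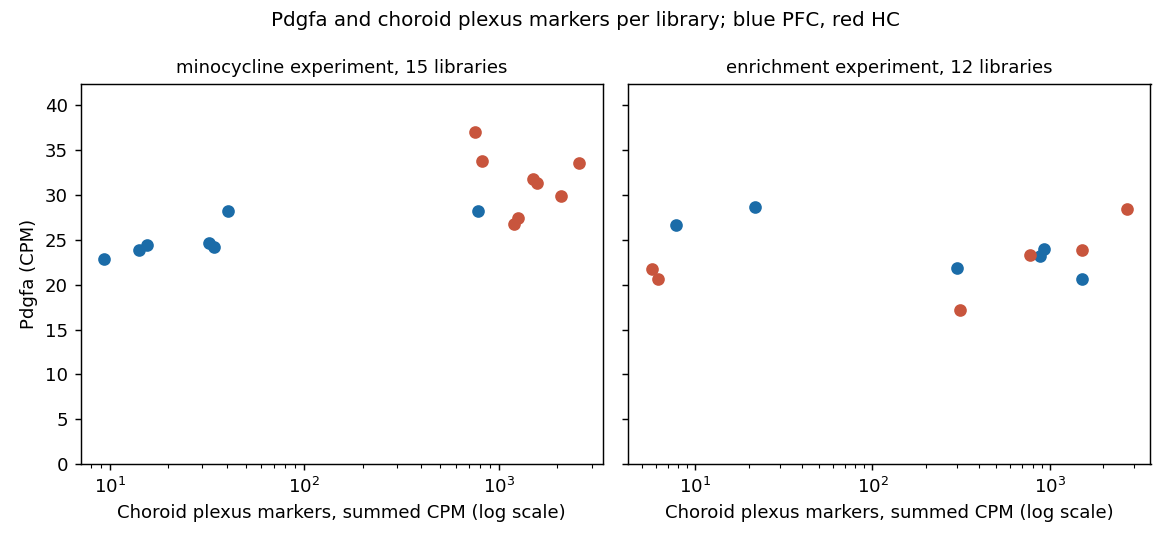
Pdgfa in CPM against the summed level of choroid plexus markers on a log axis, 1 point per library, blue for PFC and red for HC, for each experiment. In the minocycline experiment both are higher in HC (r = 0.79, n = 15), and in the enrichment experiment r is -0.01 (n = 12).

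In the enrichment experiment Pdgfa did not pass: the log2 difference of HC against PFC was -0.11 ± 0.11 (SE; edgeR adjusted p = 1.0), where 0% of all genes were called and 331 had an unadjusted p under 0.05. Among VEH libraries HC was lower than PFC with no overlap (0.808-fold), and among EE libraries the groups overlapped. The share of all genes separated in this way was not counted. PFC VEH 2 and 3 and HC VEH 1 and 2 had choroid levels against their region label. Without the 6 libraries whose choroid level went against the label, which leaves 1 library in 3 of the 4 groups, the difference was -0.40, given with no test. The difference between the 2 experiments was not tested.

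The other members did not pass between regions. In the minocycline experiment Pdgfb had a log2 difference of 0.16 ± 0.05 (SE; edgeR adjusted p = 0.0888), Vegfb 0.21 ± 0.07 (adjusted p = 0.104) and Vegfa -0.54 ± 0.22 (adjusted p = 0.191). DESeq2 called Pdgfb as well (adjusted p = 0.0384). Vegfa passed in 1 fit, that without PFC NAIVE replicate 2, with -0.70 (edgeR adjusted p = 0.0456). HC Vegfb libraries had 59.0 to 74.8 CPM and PFC libraries 46.8 to 63.4 CPM, and Vegfa had 3.87 to 7.43 CPM in HC and 3.33 to 10.3 CPM in PFC, so both overlapped. Igf1, Hbegf, Csf1 and Gdf15 had differences of 0.26, 0.00, -0.02 and -0.46.

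Genes around the members were taken from 9 lists of related ligands, receptors, binding proteins, proteases and response genes. In PFC, 4 of 118 tested genes rose in CUMS against NAIVE and 0 fell, beside 108 that rose and 11 that fell among all 14579 genes (0.816% called). They were Ptn (pleiotrophin, a heparin-binding trophic factor; log2 2.46 ± 0.37, edgeR adjusted p = 0.00563), Flt1 (a VEGF receptor; 2.19 ± 0.43, adjusted p = 0.0450), Htra1 (a secreted protease; 2.10 ± 0.36, adjusted p = 0.0144) and Timp3 (a metalloprotease inhibitor; 3.05 ± 0.53, adjusted p = 0.0162). Ptn had 5.49 to 6.16 CPM in NAIVE and 28.2 to 36.3 CPM in CUMS, and fell with minocycline (CUMS_M against CUMS -1.97 ± 0.31, adjusted p = 0.0410). With the covariate for other cell types' markers all 4 rises lost their call, at log2 differences of 0.77 for Ptn, 0.92 for Flt1, 0.39 for Htra1 and 2.05 for Timp3. The fall of Ptn in CUMS_M against CUMS lost its call in that fit too (edgeR adjusted p = 0.989). Leaving out 1 of the 4 libraries in turn, Ptn passed in 2 fits, Flt1 and Timp3 in 1 each and Htra1 in 0, and the fall of Ptn passed in 1 of 5. Astrocyte markers (7 of 12) and endothelial markers (3 of 12) rose in CUMS against NAIVE. In CUMS_M against CUMS, 1 endothelial marker fell (log2 -2.25 ± 0.36, edgeR adjusted p = 0.0410). The part of these markers in these differences was not tested. Flt1 itself is on the endothelial list.

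Between regions in the minocycline experiment 10 of 118 genes of these lists rose in HC and 6 fell, beside 500 and 244 of all 14579 genes (5.1% called). Among receptors Pdgfrb, the receptor of Pdgfb, rose (log2 1.14 ± 0.21) with Flt1 (1.29 ± 0.22), both also endothelial or mural markers. Among IGF binding proteins Igfbp7 (1.40 ± 0.27) and Igfbp2 (2.66 ± 0.57) rose, and among ligands Pdgfd (3.47 ± 0.94). Timp3 (1.60 ± 0.25) rose among the processing genes, Epas1 (1.23 ± 0.29) and Slc2a1 (0.39 ± 0.10) among hypoxia response genes, and Cebpb, a stress and myeloid transcription factor, by 0.74 ± 0.09. Osm (oncostatin M, a cytokine of myeloid cells) fell by 0.50 on the log2 scale, and Spry1, a feedback inhibitor of receptor kinases, fell by 0.51. Dusp1 and Dusp6, phosphatases of MAP kinases, fell by 0.91 and 0.29, and Errfi1, an inhibitor of the EGF receptor, fell by 0.35. Spred1, a further brake, rose by 0.23. Osm, Pdgfrb, Flt1, Igfbp7, Timp3, Cebpb and Spry1 passed in all 15 fits without 1 library, while Pdgfd and Epas1 passed in 3, Igfbp2 and Dusp1 in 4, Slc2a1 in 6, Spred1 in 2, Errfi1 in 8 and Dusp6 in 14. With the covariate for other cell types' markers Cebpb alone passed (log2 0.98). The others kept their direction in that fit without passing, for example Timp3 at 1.31, Igfbp7 at 1.03, Pdgfrb at 0.87, Osm at -0.39 and Spry1 at -0.41. No gene of these lists passed in an HC treatment comparison, with EE, or between regions in the enrichment experiment.

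Genes whose levels followed a member most closely over libraries were found among 12663 genes, ranked by the lower of the correlations in the 2 experiments. For Igf1 these were Dab2 (r = 0.89 over 15 libraries and 0.87 over 12), Timd4 (0.87 and 0.81) and Cp (0.82 and 0.81). Dab2, an endocytic adaptor, had 209 and 232 CPM in PFC CUMS_M 3 and HC CUMS 3, and Igf1 had 12.6 CPM in each. The lowest PFC libraries for Igf1, NAIVE 1 and CUMS_M 2, had 88.5 and 87.1 CPM of Dab2. Igf1 also correlated with the summed border macrophage markers over the minocycline libraries (r = 0.87), and less over the enrichment libraries (r = 0.19). These correlations were chosen as the highest, share depth and groups, and are given as a description.

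**Figure D5:**
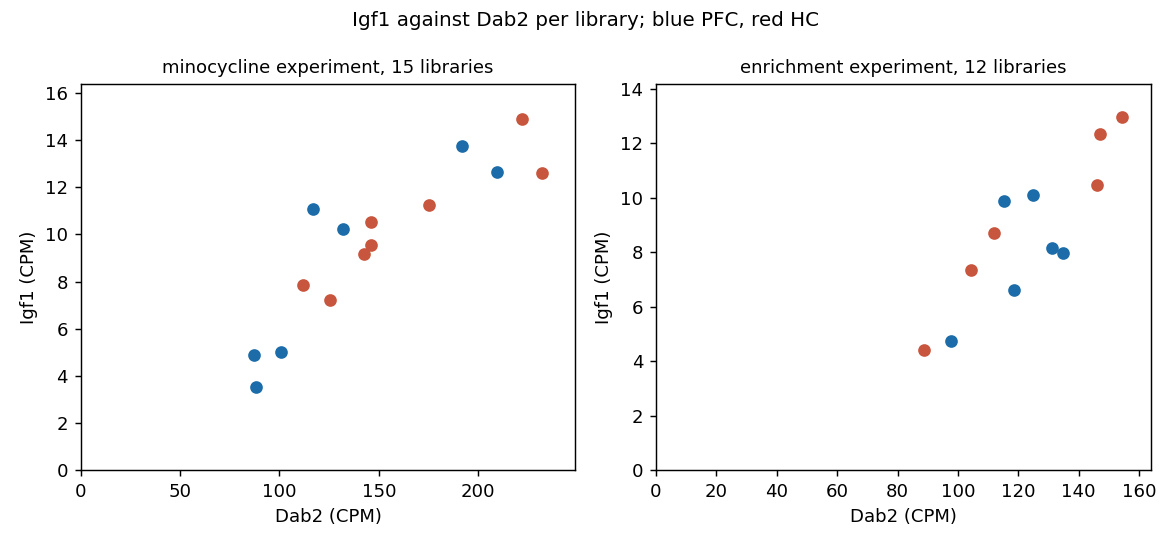
Igf1 against Dab2 in CPM, 1 point per library, blue for PFC and red for HC, for each experiment. Libraries high in one gene are high in the other (r = 0.89, n = 15 and r = 0.87, n = 12).

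For Gdf15 the closest genes were Hspa8 (r = 0.76 and 0.82), Ccl4 (0.87 and 0.77) and Hspa1a (0.85 and 0.74), heat shock genes and a chemokine, and Gdf15 correlated with the integrated stress list (0.69 and 0.72). Pdgfb followed Hnrnpa0, an RNA-binding protein (0.84 and 0.92), Arf6 (0.81 and 0.86) and Il4ra (0.79 and 0.82). Vegfb followed Tcta (0.75 and 0.77), Cldnd1 (0.75 and 0.77) and Tmem258 (0.88 and 0.74), and Vegfa followed Syt1, a neuronal synaptic gene (0.75 and 0.73), Trappc2l (0.70 and 0.73) and Rbm18 (0.68 and 0.70). The summed neuron markers, a list that includes Syt1 and so is not separate from it, correlated with Vegfa at 0.72 and 0.44. For Pdgfa the genes were Zfp428 (0.71 and 0.72), Slc12a4 (0.72 and 0.68) and Lzts2 (0.67 and 0.73), and for Hbegf Kcnk5 (0.81 and 0.71), Cdh4 (0.69 and 0.69) and Lrrc42 (0.71 and 0.68). Csf1 had the lowest values, with Pmaip1 (0.53 and 0.60), Errfi1 (0.51 and 0.58) and Odc1 (0.51 and 0.57). Among the members themselves, Pdgfa and Pdgfb moved together in both experiments (r = 0.56 and 0.60), while Pdgfb and Vegfa had opposite signs (-0.70 and 0.62).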

How the data were processed

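RNA of sorted CD11b+ cells was sequenced from stranded polyA libraries in 27 samples. The authors deposited raw counts per gene, 1 table per experiment. Per the submitters' processing notes the tools were Trimmomatic 0.36, STAR 2.6.1b, Picard 2.17.1, featureCounts 1.5.3 and DESeq2 1.24.0, with mm10 and GRCm38; strand setting and annotation release are not given in the sources used here. From the deposited counts, edgeR 4.0.16 (R 4.3.3) fitted each table apart: TMM scaling, filterByExpr (minimum count 10, total 15), 1 mean per group over all libraries, quasi-likelihood F-test, two-sided, Benjamini-Hochberg adjustment over 14579 and 15921 genes, calls at an adjusted p under 0.05. The script was tested on simulated data. CPM uses the TMM library size; correlations use log2 CPM with a prior count of 2. DESeq2 1.42.0, size factors, no filter, a marker covariate, a replicate block, leaving out libraries and fits of only the compared groups were alternatives. Named genes are the 8 members, list genes past the threshold (up to 4 per list by smallest p; Spred1, outside that limit, was added after its values were seen), and the 3 genes with the highest lower correlation with each member over both experiments; 1 list gene is not reported here. Members and lists were chosen with earlier results of these data known. Same-numbered libraries deviated together in PFC EE and VEH (r = 0.359, 0.198 and 0.208), and no label states a pairing. PFC VEH 1 and PFC EE 1 were also the low-choroid libraries of their groups (7.78 and 21.7 CPM). What the shared deviations come from was not tested, and the block changed no member's call there.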

Additional observations from a re-analysis of the deposited data

How the results depend on the processing

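Of the 8 members, 1 was called between regions in the minocycline experiment, against 0 with the marker covariate, 0 with the replicate block and 2 with DESeq2, and 0 to 1 when a library was left out. No member was called in any treatment comparison under any of these alternatives, the replicate block included, and the block changed no other member's call. Among the list genes the block ended the calls of Flt1 (adjusted p = 0.124) in PFC CUMS, Ptn (0.203) in PFC CUMS_M against CUMS, and Pdgfd, Igfbp2, Epas1, Dusp1 and Spred1 (0.0504 to 0.153) between regions. Beyond PFC EE and VEH, correlations of the deviations of same-numbered libraries ran from -0.278 to 0.438, and no label pairs them. In HC against PFC among VEH libraries they were 0.438, -0.041 and 0.221 for replicates 1, 2 and 3. No called value reversed. Of 1469 alternative values, 147 changed sign where the unadjusted p was 0.05 or more and 0 where it was under. Gdf15 gave no value in 3 fits of only the groups compared, and that fit was not run where all groups enter.

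Counts over all genes moved more. With no filter, PFC CUMS against NAIVE gave 402 genes in place of 119, DESeq2 319, the covariate 11, the block 63 and only the compared groups 26. PFC CUMS_M against CUMS gave 170, 74, 0, 0 and 68 in place of 3, and CUMS_M against NAIVE 268, 127, 58, 0 and 0 in place of 13. Between regions in the minocycline experiment the counts were 1191, 1125, 136 and 428 in place of 744. HC EE against VEH gave 278 with no filter, 382 with DESeq2, 73 with the block and 223 with only the compared groups, in place of 0; PFC EE against VEH gave 19 and 18 with the first pair. Without the libraries whose choroid level went against the label, chosen after the data were seen, PFC CUMS_M gave 9 against CUMS and 4 against NAIVE. With enrichment that leaves 1 library in 3 of the 4 groups, with the spread taken from HC EE alone, and the counts of 1012 for HC EE, 334 for PFC EE and 2051 between regions are not comparable with those of full groups. Leaving out 1 library gave 13 to 540 genes for PFC CUMS against NAIVE, 0 to 9 for CUMS_M against CUMS, 0 to 610 for CUMS_M against NAIVE, 292 to 983 between regions in the minocycline experiment and 0 to 41 for HC EE. The causes were not tested. Groups of 2 or 3 libraries limit every comparison, and Gdf15 had 1 to 47 counts per library.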
